A study of Drosophila melanogaster with 2 samples.

Results

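The genes examined here encode the subunits of the proteasome of Drosophila melanogaster, together with paralogs whose symbols end in T or R. They were picked by symbol (Prosalpha, Prosbeta, Rpn or Rpt and a number), with earlier results of these data known. This gave 48 of the 13945 protein-coding genes of the Ensembl annotation on chromosome arms 2L, 2R, 3L, 3R, 4 and X. Of the 48, 32 are general subunits and 16 are paralogs, 4 of them with T and 12 with R after the subunit number. The data are chromatin immunoprecipitation peak lists for CG12768, a protein with a MADF DNA-binding domain, from whole adult male flies whose age is unknown. The single group consisted of 2 biological replicates of 1 transgenic line, CG12768-GFP, in which a stable insertion makes CG12768 tagged at its C-terminal end with GFP (eGFP in the sample notes), and anti-GFP antibody pulled down the chromatin after sonication to 200-800 bp. The labels do not say which promoter drives the fusion or whether the untagged gene is intact, and whole bodies mix all tissues. With a single genotype and no treatment, no comparison between conditions was possible.

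The proteasome degrades proteins that carry chains of ubiquitin. Its core particle is a barrel of outer alpha rings (Prosalpha genes), which gate entry, and inner beta rings (Prosbeta genes), which hold the proteolytic sites. The regulatory particle caps the barrel: its base holds the Rpt ATPases, which unfold substrates, with Rpn1, Rpn2 and the ubiquitin receptors Rpn10 and Rpn13, and its lid holds the deubiquitinase Rpn11 with its partner Rpn8 and scaffold subunits. In male flies the germline makes variants of many subunits, and the T genes, such as Prosalpha6T, are known for expression in the testis.

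A gene was called bound where a summit of the authors' thresholded list lay within 500 bp of one of its transcript starts. The list held 6066 peaks of dm6, which were the 6066 peaks of highest signal of a pooled list of 30000 that includes background. The signal is the authors' own value per peak, with a scale that is not stated, and it serves here for ranking within 1 list. Each replicate also had its own list of 30000 peaks. Depth is unknown because the lists hold no read counts, and a mock immunoprecipitation without the tagged protein was not used here.

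Summits of CG12768 lay at some general subunit genes and at no paralog. Of the 48 genes 10 were bound, all of them general subunits (10 of 32, against 0 of 16 paralogs), beside 25.9% of all protein-coding genes. The general share, 31%, was thus near that of all genes. The bound share differed among the parts of the complex. In the lid 6 of 8 general genes were bound (Rpn3, Rpn5, Rpn6, Rpn8, Rpn11 and Rpn12), in the base 2 of 10 (Rpn2 and Rpt5) and in the core 2 of 14 (Prosalpha3 and Prosbeta2). With the paralogs counted in, the shares were 6 of 9 in the lid, 2 of 14 in the base and 2 of 25 in the core. The counts are small, genes are not replicates of a condition, and no test of the difference between lid, base and core was run.

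**Figure D1:**
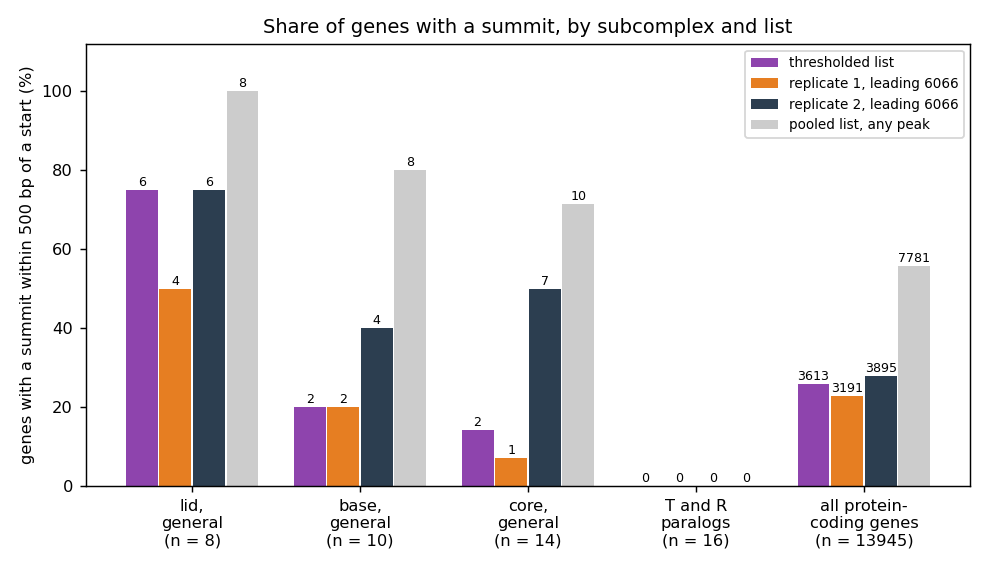
Share of genes with a summit within 500 bp of a start (percent, from 0), with the number of genes above each bar, for the general lid, base and core genes, the 16 paralogs and all 13945 protein-coding genes. Bars are the thresholded list, the leading 6066 peaks of each replicate alone, and any peak of the pooled list. The lid stands at 6 of 8 in the thresholded list, and the paralogs have no summit in any of these lists.

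Sequences at the summits of some bound genes are shown because a promoter element described further on lies at some of them and not at others. They read 5′ to 3′ on the strand of the named gene, from the RefSeq copy of the dm6 genome. Capitals mark the DNA replication-related element (DRE, TATCGATA), or in Rpn2 the 6 letters at its centre, ATCGAT, and the last pair have neither.
Rpt5 (chr3R:23752805-23752875, plus strand): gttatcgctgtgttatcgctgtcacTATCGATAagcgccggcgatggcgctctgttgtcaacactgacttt
Prosbeta2 (chr3L:14999681-14999776, plus strand): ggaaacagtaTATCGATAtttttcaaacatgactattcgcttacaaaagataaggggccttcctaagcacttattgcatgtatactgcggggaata
Rpn12 (chr3L:16582802-16582904, plus strand): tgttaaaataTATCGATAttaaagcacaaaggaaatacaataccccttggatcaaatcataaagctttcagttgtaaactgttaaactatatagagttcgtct
Rpn2 (chr3R:29153424-29153504, plus strand): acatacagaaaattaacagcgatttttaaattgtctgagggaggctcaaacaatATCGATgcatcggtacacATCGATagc
Rpn11 (chr2L:5059798-5059878, minus strand): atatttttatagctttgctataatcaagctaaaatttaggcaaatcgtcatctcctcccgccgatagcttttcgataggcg
Rpn5 (chr3R:5789130-5789210, plus strand): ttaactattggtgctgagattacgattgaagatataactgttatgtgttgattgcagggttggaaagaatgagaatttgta

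Among the lid genes, Rpn5, a scaffold subunit (FBgn0028690), had the strongest peak (chr3R:5788948-5789391). Its signal was 366.5 in the thresholded list (rank 1286), with the summit at −323 bp from the start, in an intron of the neighbouring histone acetyltransferase gene Hat1. That summit was nearer a start of Hat1, at 96 bp. A further thresholded summit of signal 279.3 (rank 2109) lay at −105 bp. Hat1 is transcribed the other way, and its closest start is 109 bp from that of Rpn5, so neither summit can be given to Rpn5 alone. In the replicates' own lists the strongest Rpn5 summit ranked 2653 in replicate 1 (signal 135.7) and 923 in replicate 2 (230.1). Both replicates also had the summit nearer the start, at −105 bp in replicate 1 and −25 bp in replicate 2, so Rpn5 carried a pair of summits in every list.

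Rpn11 encodes the deubiquitinase that strips ubiquitin from substrates before they enter the core. Its 2 thresholded summits lay at −48 bp (chr2L:5059616-5060059, signal 242.8, rank 2654) and −260 bp (186.1, rank 4020), outside the gene. The strongest Rpn11 summit ranked 5408 in replicate 1 (signal 87.61) and 1747 in replicate 2 (158.7). Both replicates thus placed Rpn11 among their leading 6066 peaks.

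Rpn3, another scaffold subunit, was the bound gene whose strongest summit lay downstream of its start, by 7 bp and in the 5′ UTR. Its signal was 225.9 (chr2L:19051575-19052018, rank 2975), and it ranked 5264 in replicate 1 (89.16) and 2440 in replicate 2 (125.6). The summits of both replicates lay downstream of the Rpn3 start, at 16 bp in replicate 1 and 7 bp in replicate 2.

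Rpn6, a scaffold subunit that also contacts the core, rested on replicate 2. Its thresholded summit (chr2R:14752150-14752593, signal 230.2, rank 2879) lay in an intron, at −101 bp from an alternative start inside the gene, and the same position had rank 1737 in replicate 2 (159.2). Replicate 1 had no summit within 500 bp of a start of Rpn6, the closest being 5138 bp away.

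Rpn8 and Rpn12 were near the end of the thresholded list. Rpn8, the partner of Rpn11, had signal 148.4 (chr2R:24399571-24400014, rank 5652, summit at −235 bp, in an intron of the kinase gene Slik), with rank 4135 in replicate 1 (104.1) and 9115 in replicate 2 (50.54). Rpn12, which helps to hold the lid to the base, had signal 143.1 (chr3L:16582642-16583085, rank 5961, summit at −164 bp), with rank 11791 in replicate 1 (48.33) and 4825 in replicate 2 (79.33). The replicates therefore ranked these lid genes in opposite order.

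Rpn7 and Rpn9, both scaffold subunits, were the lid genes that were not bound. Rpn9 had a pooled summit of rank 10754 (signal 90.89), with rank 13974 in replicate 1 (42.06) and 5925 in replicate 2 (68.72). Rpn7 had one of rank 21672 (52.39), none in replicate 1 and rank 15963 in replicate 2 (34.58). All 8 general lid genes thus had a summit in the pooled list, where 55.8% of all protein-coding genes had one.

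In the base, Rpt5, an ATPase of the ring that unfolds substrates, had the strongest peak of all 48 genes. The peak (chr3R:23752755-23752950) had signal 442.8 and rank 873, and it ranked 852 in replicate 1 (237.2) and 1238 in replicate 2 (195.5). Its summit was at −40 bp from the Rpt5 start and 2 bp from the start of RanBP3, which is transcribed the other way and whose start is 42 bp from that of Rpt5, so the peak cannot be given to one of the genes alone. The Rpt5 sequence printed earlier covers this shared promoter.

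Rpn2, the large scaffold of the base, had signal 271.3 (chr3R:29153242-29153685, rank 2217) at −60 bp, with rank 3939 in replicate 1 (107.3) and 1537 in replicate 2 (172.6). It too has a divergent partner: Slbp, which encodes the stem-loop binding protein of histone mRNA, starts 258 bp from it and was bound. Rpt5 and Rpn2 were among the leading 6066 peaks of both replicates.

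The other 8 general base genes were not bound. Rpt2 (pooled signal 114.7, rank 8045) and Rpt1 (100.7, rank 9504) came closest. Rpt2 ranked 16491 in replicate 1 (36.95) and 5243 in replicate 2 (74.71), and Rpt1 27546 (25.4) and 5269 (74.49), so both were among the leading peaks of replicate 2 alone. Rpn10, Rpt3, Rpn13 and Rpn1 had weaker pooled summits, from 87.96 at Rpn10 to 42.71 at Rpn1. Rpt4 had a summit in replicate 2 only (rank 27308), and Rpt6 had none in any list.

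In the core, 1 alpha and 1 beta gene were bound. Prosalpha3, an alpha ring subunit, had signal 239.2 (chr2R:20994595-20995038, rank 2720) at −83 bp, with rank 9486 in replicate 1 (57.84) and 1432 in replicate 2 (180.2). Prosbeta2, which carries the trypsin-like site, had signal 193.9 (chr3L:14999514-14999957, rank 3785) at −215 bp, with rank 8257 in replicate 1 (64.22) and 2165 in replicate 2 (136.9). The Prosbeta2 summit was nearer the start of mRpL39, a mitochondrial ribosomal protein gene, at 70 bp. Both core genes were outside the leading 6066 peaks of replicate 1 and inside those of replicate 2.

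Several core genes lay just under the threshold, whose lowest signal was 141. Prosbeta5, which carries the chymotrypsin-like site, had a pooled signal of 133.5 (rank 6571), with rank 8908 in replicate 1 (60.69) and 5719 in replicate 2 (70.28). The alpha ring genes followed. Prosalpha4 had 130 (rank 6808, −318 bp), Prosalpha6 124.9 (rank 7190, −421 bp) and Prosalpha2 119.9 (rank 7616, −194 bp). The pooled summit was nearer the start of kat80 (35 bp) at Prosalpha4 and of Npc1a (22 bp) at Prosalpha6. At Prosbeta5 it was 46 bp from the start of dgo and 48 bp from its own, while at Prosalpha2 its own start was nearest. Prosalpha4 ranked 11028 in replicate 1 (51.14) and 5173 in replicate 2 (75.48), and Prosalpha2 ranked 17481 in replicate 1 (35.35) and 4578 in replicate 2 (82). Prosalpha6 ranked 4906 in replicate 1 (93.23) and 4874 in replicate 2 (78.63). All 4 were among the leading 6066 peaks of replicate 2, and of these only Prosalpha6 was also among those of replicate 1.

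The remaining core genes had weak summits or none. Prosalpha7, Prosbeta6, Prosalpha5 and Prosbeta7 had pooled signals from 76.37 down to 58.85. Prosbeta1, the caspase-like subunit, had a summit in replicate 2 only (rank 18802) and Prosbeta4 in replicate 1 only (rank 22499), while Prosbeta3 and Prosalpha1 had none. Prosalpha1 could not be measured in the same way as the rest: none of the 966 words of 36 bases within 500 bp of its start occurs at a single place on the 6 arms, and the same held for its paralog Prosalpha1R. In the other 46 genes at least 95.4% of such words were unique.

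**Figure D2:**
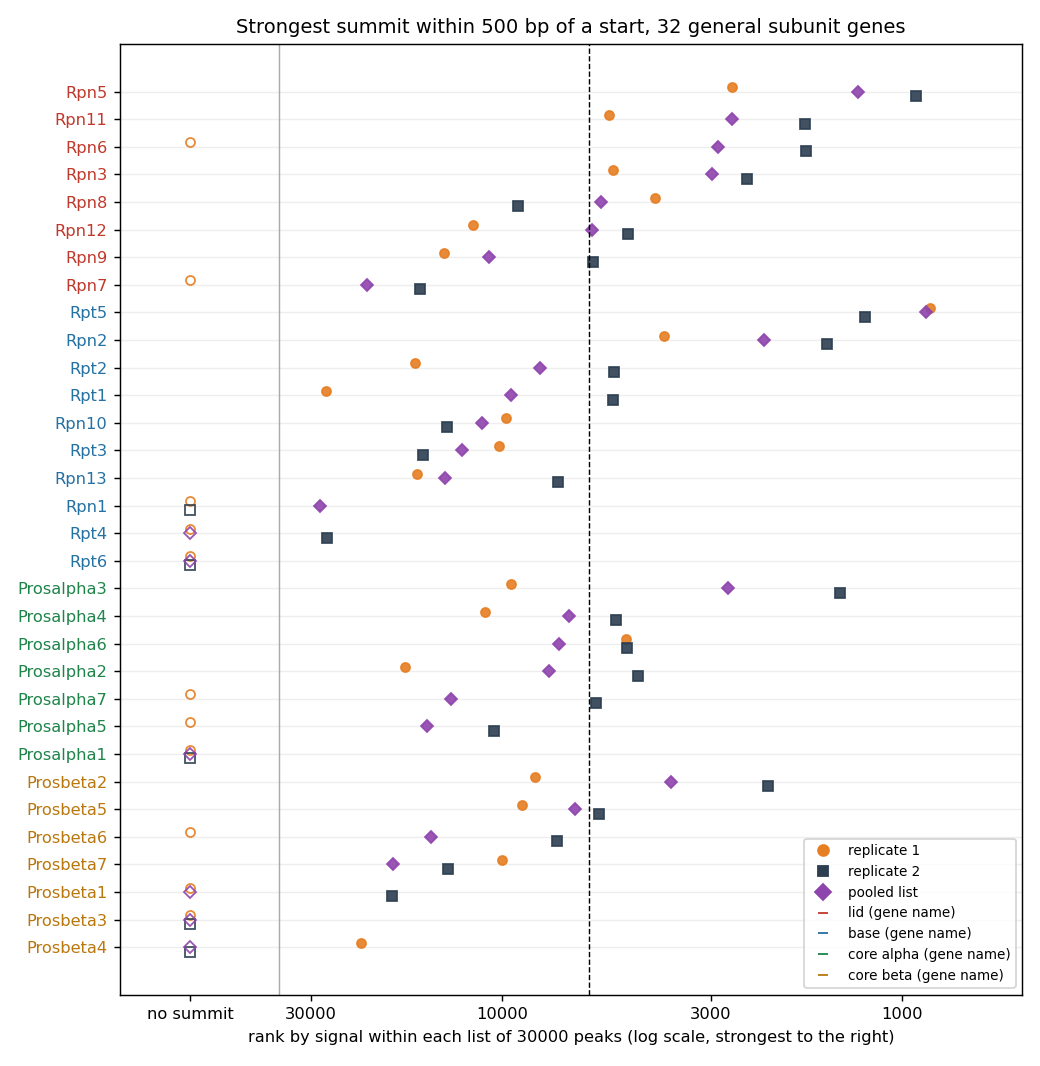
Rank by signal (log scale, strongest to the right) of the strongest summit within 500 bp of a start for each of the 32 general subunit genes, in replicate 1, replicate 2 and the pooled list, with open symbols where a list has no summit. The dashed line is rank 6066. Rpt5 and Rpn5 are the furthest right in the pooled list (ranks 873 and 1286), and in 6 of the 7 core genes with a summit in both replicates, replicate 2 is to the right of replicate 1.

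The distance rule left few genes near its edge. Of the bound genes Rpn8 (235 bp), Prosbeta2 (215 bp) and Rpn12 (164 bp) had the farthest closest summit. Of the genes outside, Rpn13 was nearest, with a thresholded summit at −603 bp (signal 285) that is closest to CtsL1, a cathepsin gene. Prosalpha6 followed with a summit at −623 bp (signal 228) at Npc1a, a sterol transporter gene, and Prosbeta6 with one 1112 bp downstream (271.2), at CG4098.

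Numbers of called subunit genes differed between the replicates. When the leading 6066 peaks of each replicate were used alone, replicate 1 called 7 of the 48 genes, beside 22.9% of all protein-coding genes, and replicate 2 called 17, beside 27.9%. Replicate 1 called Rpn3, Rpn5, Rpn8, Rpn11, Rpn2, Rpt5 and Prosalpha6. Replicate 2 called 9 of the 10 bound genes (without Rpn8) and 8 others: Rpn9, Rpt1, Rpt2, Prosalpha2, Prosalpha4, Prosalpha6, Prosalpha7 and Prosbeta5.

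The order of the subcomplexes depended on the replicate in part. In replicate 2 the lid had 6 of 8 genes, the base 4 of 10 and the core 7 of 14, and in replicate 1 the lid had 4 of 8, the base 2 of 10 and the core 1 of 14. The lid had the highest share in each, while the core was above the base in replicate 2 and below it in replicate 1. Only 5 of the 10 bound genes (Rpn3, Rpn5, Rpn11, Rpn2 and Rpt5) were among the leading peaks of both replicates. Over the full lists, replicate 1 had a summit at 21 general genes, beside 52.7% of all protein-coding genes, and replicate 2 at 27, beside 55.1%. Of the 20 general genes with a summit in both, 15 ranked higher in replicate 2 (75%), as did 58.5% of the 6260 protein-coding genes with a summit in both.

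The count of 10 stayed within the general subunits under each rule tried. At 250 bp it was 10, beside 21.6% of all genes, and at 1000 bp it was 12, beside 29.7%, with Rpn13 and Prosalpha6 added. In the 3033 strongest peaks it was 7, beside 15.4%, with 4 lid, 2 base and 1 core gene. With each summit given only to its nearest start it was 7, beside 20.5%, since the summits of Rpt5, Rpn5 and Prosbeta2 then belong to RanBP3, Hat1 and mRpL39. With the 5′-most start of each gene it was 9, beside 23.1%, and with a peak lying over a start it was 9, beside 19%.

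Bound subunit genes had peaks of moderate strength. Their signals ran from 143 to 443 with a median of 235, beside a median of 259 over the 3613 bound protein-coding genes, whose highest value was 4033. The strongest summit lay upstream of the start in 9 of the 10, and the median position was −92 bp. Over the 26 general genes with a pooled summit the strongest one was upstream in 21 and downstream in 5.

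**Figure D3:**
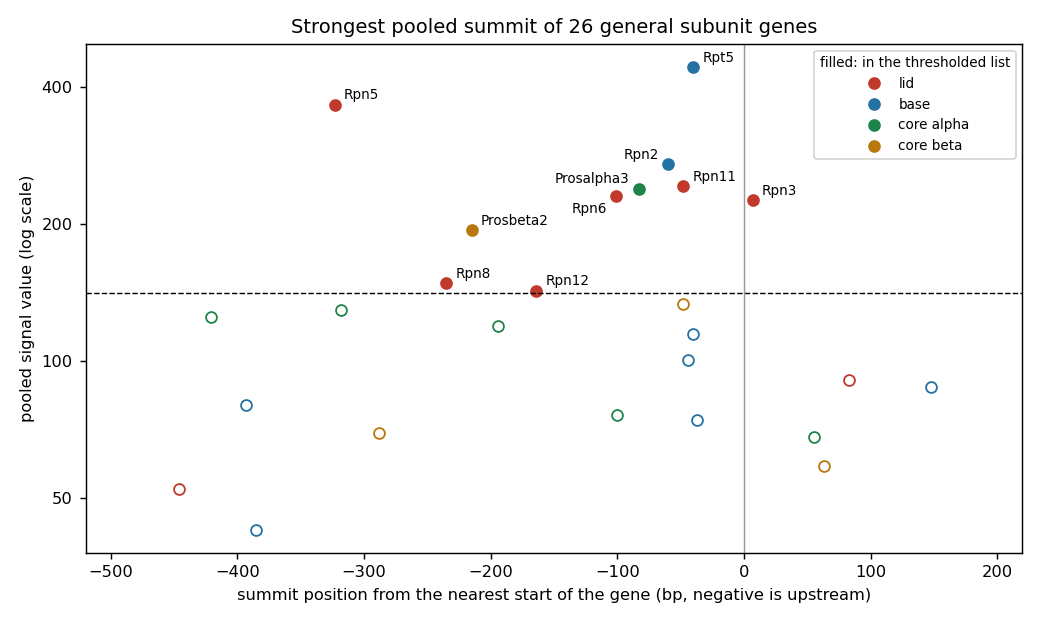
Pooled signal value (log scale) against the position of the strongest pooled summit from the nearest start of the gene (bp, negative is upstream) for the 26 general subunit genes that have one, coloured by subcomplex. Filled points are in the thresholded list and lie above its lowest signal, 141 (dashed line); 9 of these 10 are upstream of the start.

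Divergent promoters were common among the general subunits. An opposite-strand start of another gene lay within 1000 bp upstream of 22 of the 32 general genes (68.8%) and of 4 of the 16 paralogs, beside 36.2% of all protein-coding genes. Any annotated start of a gene counted, also one without a summit. Of the 10 bound genes 8 had such a partner, and in 7 of these the partner was bound as well: RanBP3 with Rpt5, Slbp with Rpn2, Hat1 with Rpn5, mRpL39 with Prosbeta2, dgt3 with Prosalpha3, ave with Rpn6 and l(2)37Bb with Rpn3. The partner of Rpn8, Slik, was not bound. The Rpn8 start that Slik faces, at 325 bp, was not the one near the thresholded summit. Rpn11 and Rpn12 had no partner. Among the 22 general genes with a partner 8 were bound (36.4%), beside 42.4% of the 5052 protein-coding genes with one. Among the 10 without a partner 2 were bound (20%), beside 16.5% of the 8893 such genes.

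Gene structure and protein sequence were read from the annotation. A single exon was annotated for 4 of 32 general genes and 6 of 16 paralogs, beside 16.1% of all protein-coding genes. The start lay inside another protein-coding gene in 2 of 32 general genes (Rpt1 and Rpt6) and 4 of 16 paralogs (Rpn13R, Rpn12R, Prosalpha4T1 and Prosbeta4R2), beside 15.5% of all protein-coding genes. The proteins predicted from the annotation were 38.4% (Rpn13R) to 88.7% (Rpt6R) identical to the general subunit of the same number, over aligned residues, with Prosalpha1R at 100%. Prosalpha1R was also alike at the start region, where 96.6% of a window of 501 bases matched that of Prosalpha1, while for the other paralogs 49.9% to 60.5% of the window matched the general subunit.

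General genes and paralogs also stood apart in the weaker peaks. The pooled list had a summit within 500 bp of 26 of the 32 general genes and of 0 of the 16 paralogs (0 of 15 without Prosalpha1R, whose sequence is not unique), and no paralog had one in either replicate's list. The median distance to the closest pooled summit was 126.5 bp for general genes, 5040 bp for paralogs and 318 bp for all protein-coding genes. It was over 2000 bp for 3 of the 32 general genes, all 16 paralogs and 28.4% of all protein-coding genes. Among the paralogs Prosbeta2R2 had the closest pooled summit, at 2162 bp. Whether this difference between general genes and paralogs exceeds chance was not tested.

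In the replicates' own lists some summits came nearer to paralogs. The closest was 595 bp from Prosbeta2R2 in replicate 2, with 818 bp in replicate 1. Prosbeta4R2 (786 bp) and Rpt6R (821 bp) followed in replicate 1, and Rpn13R (989 bp) in replicate 2. Rpt3R, whose start lies 19 bp from that of Alg12 on the other strand, had its closest pooled summit at 3154 bp, and that peak was also the thresholded one closest to any paralog. How much of the chromatin came from germline nuclei is not given in the labels, and its part in this result was not tested.

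**Figure D4:**
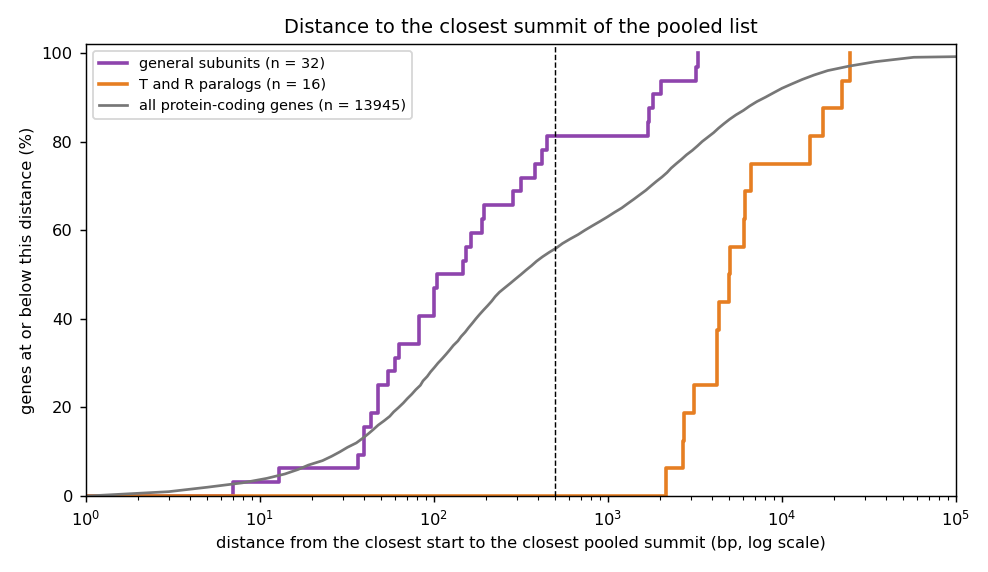
Cumulative share of genes (percent) by distance from the closest start to the closest summit of the pooled list (bp, log scale) for the 32 general subunits, the 16 paralogs and all 13945 protein-coding genes. The dashed line is 500 bp. The median is 126.5 bp for general subunits, 5040 bp for paralogs and 318 bp for all genes.

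Promoter sequence was searched for 6 motifs on both strands. In the 250 bases before and 50 after the start, the DRE (TATCGATA, which is its own reverse complement) was found in 11 of 32 general genes (34.4%) and 1 of 16 paralogs (Rpt3R), beside 8.94% of all protein-coding promoters. The element is known in flies as the site of the factor Dref, and a match of letters does not show that Dref sits there. Among the bound genes 5 of 10 had it (Rpt5, Rpn3, Rpn12, Prosalpha3 and Prosbeta2), and among the unbound general genes 6 of 22 (Rpn7, Rpn9, Prosalpha5, Prosalpha6, Prosbeta1 and Prosbeta6), beside 12.3% of all bound protein-coding genes. By subcomplex it was in 4 of 8 lid, 1 of 10 base and 6 of 14 core promoters, so it did not follow the bound share in the core.

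Copies of the element also lay close to several summits, and not all of them were the promoter copies. In the 201 bp at the summit it was found at 5 of the 12 thresholded summits of the bound genes, beside 2.74% of all 6066 summits. The 12 all lay within 500 bp of a start, while the 6066 were taken wherever they lay, so these sets are unlike. Its centre lay at −2.5 bases from the Rpt5 summit, −8.5 from that of Prosalpha3, −41.5 from that of Prosbeta2, −48.5 from that of Rpn12 and 72.5 from that of Rpn3, negative being upstream. At Rpt5, Prosalpha3 and Rpn12 this was the copy counted in the promoter. At Prosbeta2 and Rpn3 it was another copy, which began at −260 bp and 76 bp from the start, while the promoter copy began at −10 bp in Prosbeta2 and −197 bp in Rpn3. The 6 letters ATCGAT, which lie within the DRE and were searched after the sequences had been seen, were in 17 of 32 general and 2 of 16 paralog promoters, beside 22.7% of all. They were at 7 of the 12 summits, beside 8.34% of all thresholded summits, whether near a start or not.

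The remaining motifs stood on both sides of the level of all genes. The letters GGTCACAC of the M1BP motif were in 6 of 32 general and 0 of 16 paralog promoters, beside 7.54% of all. GAGAG was in 3 of 32 general and 6 of 16 paralog promoters, beside 30.2%, and CACACA in 1 of 32 and 1 of 16, beside 19.7%. At the 12 summits GAGAG was found in 0 and CACACA in 1, beside 30.6% and 21.9% of all thresholded summits, whether near a start or not. The member summits, all near starts, thus held fewer of these repeats than the list as a whole. TGACNNNGC, the antioxidant response element read by the Cnc and Maf proteins, was in 5 of 32 general and 1 of 16 paralog promoters, beside 8.48%, and in none of the 10 bound genes. CACGTG was in no promoter of the 48 genes and in 4.26% of all. The GC content of the promoters had a median of 33.5% in general genes and 32.5% in paralogs, beside 38% in all protein-coding genes.

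None of the general genes on the X chromosome was bound. The 4 genes there (Rpt3, Rpt4, Rpt6 and Prosalpha4) stood beside 17.8% bound among all protein-coding genes on X, and Prosalpha4 and Rpt3 had pooled summits of rank 6808 and 12585.

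Other genes of the ubiquitin-proteasome pathway were bound in 13 of 23 cases, beside 25.9% of all protein-coding genes. The list was chosen by function, with earlier results of these data known. Ubiquitin itself was represented by the polyubiquitin gene Ubi-p63E (signal 285.5, rank 2000), by RpS27A, a fusion of ubiquitin with a ribosomal protein (374.4, rank 1225), and by Ubi-p5E (141.7, rank 6049). RpS27A shares its start with Ip259, so that peak cannot be given to one of them alone. The strongest peak of the list was at ntc (402, rank 1067), which encodes an F-box protein of spermatid differentiation, with its summit nearer the start of IntS10. PI31, which encodes a proteasome-binding regulator that the ntc product contacts, had signal 166.4. The gene cnc, which encodes the factor known for inducing proteasome genes, had signal 330.7 and 6 thresholded summits over its 10 starts, and Keap1, which encodes the inhibitor of that factor, had 148.4.

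The other bound pathway genes were Rad23 and Ubqn, which encode shuttles for ubiquitinated proteins, the deubiquitinase genes Uch and Uch-L5, Npl4, a cofactor gene of the segregase, and Pngl, a glycanase gene. Their signals ran from 146.9 at Rad23 to 242.1 at Ubqn. The strongest Ubqn summit was nearer the start of dome, at 175 bp, and the Uch-L5 summit nearer the start of Jarid2, at 56 bp. Replicate 1 had no summit within 500 bp of the Rad23 start. Not bound were the segregase gene TER94 itself, Uba1, which encodes the ubiquitin-activating enzyme (pooled signal 138, rank 6267), the assembly factor gene Pomp, and REG, RpL40, Usp14, maf-S, p47, rngo and sip3. Of the 13 bound genes 6 were among the leading peaks of both replicates. Of the 23, 8 were called from the leading 6066 peaks of replicate 1 (beside 22.9% of all genes), 13 from those of replicate 2 (beside 27.9%) and 5 from the 3033 strongest thresholded peaks (beside 15.4%).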

How the data were processed

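The authors deposited dm6 peak lists in narrowPeak form: 1 list per replicate and 1 pooled list of 30000 peaks each, and a list thresholded by irreproducible discovery rate (IDR), per the file names and labels. A possible control library that the labels name was not used here. For aligner, caller and IDR threshold, names and values were not given in the sources used here. The authors' signal value of a peak was ranked only within its list. Their deposited −log10 q-value was not used, because 4776 of 6066 thresholded peaks share its highest value. Lists on the older dm3 build were not used, and no coordinates were converted.

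Starts and genes came from Ensembl release 115, and sequence from the RefSeq genome of the same assembly, whose arms contain every pooled peak. Promoters ran from 250 bases before to 50 after the canonical start. Proteins were translated from annotated coding sequence and aligned globally with BLOSUM62. Python 3.11.15, pandas 2.3.3 and Biopython 1.88 were used, and the assignment of summits to starts was tested on simulated data. No significance test was run, because there was 1 group of 2 replicates. Counts over genes were set beside the same count over all protein-coding genes. The replicates are separate biological replicates per the labels.

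The members and gene lists were chosen with earlier results of these data known. The text names every bound gene, the 6 strongest unbound general genes, the genes nearest the distance limit and, by role, the rest. Of 26 pathway symbols 23 were in the annotation. Rpn10 was counted with the base. The alternatives were other distances, lists, replicates alone, start assignments and starts. Leaving out Prosalpha1 and Prosalpha1R, the words of 36 bases and the 6-letter motif were added after seeing the data.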

Additional observations from a re-analysis of the deposited data

How the results depend on the processing

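The paralogs stayed at 0 bound under each alternative tried. Without replicate 1, the count of bound genes was 17 of 48 (7 core, 4 base and 6 lid genes), beside 27.9% of all genes. Without replicate 2 it was 7 of 48 (1 core, 2 base and 4 lid genes), beside 22.9%. Of the separate list of 23 pathway genes, 13 and 8 were bound. The 17 exceeds 1.5 times the 10 of the thresholded list. Base and core counts of 2 are so small that a change of 1 or 2 genes moves them past that ratio. The core count changed by more without replicate 1, from 2 to 7. Any summit of the pooled list, background included, gave 26 of 32 general subunits (10 of 14 core, 8 of 10 base and 8 of 8 lid genes), 0 of 16 paralogs and 20 of 23 pathway genes, beside 55.8% of all protein-coding genes. In the 3033 peaks of highest signal 1 core gene and 5 pathway genes were bound (beside 15.4% of all genes), and with nearest starts 1 core and 1 base gene (beside 20.5%). The lid stayed between 4 and 6 under the alternatives within the thresholded list and the replicates. With the 5′-most start only, 9 of 48 genes were bound (beside 23.1% of all genes), and with a peak over a start 9 (beside 19%). Counting Rpn10 with the lid, or leaving out Prosalpha1 and Prosalpha1R, changed no bound count. Where counts moved, the cause was not tested. No paired analysis was possible because there is 1 group. Depth is unknown, so a gene without a summit may lie under the detection limit of these lists.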

Other observations

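The lid is related in architecture to the COP9 signalosome and to the translation initiation factor eIF3, and these complexes were looked at after the lid counts had been seen. Of 8 genes whose symbols start with CSN, 2 were bound: CSN5 (signal 188), the deneddylase subunit, and CSN3 (145). Of 16 eIF3 genes 4 were bound: eIF3h (586), eIF3c (316), eIF3a (303) and eIF3m (267). Each share is 25%, close to the 25.9% of all protein-coding genes, while 6 of 8 general lid genes were bound. The sets are unlike, because the lid count leaves out its paralog. The eIF3 count keeps eIF3d2, eIF3f2 and eIF3g2, none of them bound. The CSN count was taken by symbol, keeps both CSN1a and CSN1b, neither of them bound, and holds no gene named CSN2. No test was run.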
